A study of Mus musculus with 18 samples.

Results

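The 8 genes described here make up the MHC class II presentation machinery as measured in bone marrow-derived macrophages (BMDMs): H2-Aa, H2-Ab1 and H2-Eb1, which encode class II chains, Cd74, which encodes the invariant chain, Ciita, which encodes the class II transactivator, and H2-DMa, H2-DMb1 and H2-DMb2, which encode the chains of the peptide editor DM. They were chosen by symbol, and all 8 were found among the 24485 genes listed for each library. RNA-seq was performed on 18 libraries of BMDMs, grown for 6 days in L929-conditioned medium from the marrow of 3 mice. Every group, controls included, carried the same Il10-/- genotype on the C57BL/6J background, and the mice were 12-week-old males. The 6 groups of 3 libraries were unstimulated cells, cells given (+)-JQ1 at 500 nM, cells given IL-10 at 10 ng/mL, and the same 3 pretreatments followed by lipopolysaccharide (LPS) at 50 ng/mL. Pretreatment lasted 12 hours and LPS or saline buffer was present for the last 4 of the 16 hours. JQ1 blocks the bromodomains of the BET proteins, IL-10 is an anti-inflammatory cytokine, and LPS is an endotoxin of Gram-negative bacteria, sensed by macrophages through TLR4. The labels call cells given neither JQ1 nor IL-10 untreated, whereas a vehicle pretreatment before LPS is described in the methods.

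MHC class II molecules are pairs of an alpha and a beta chain that display peptides from engulfed material to CD4 T cells. The newly made pair is held by the invariant chain, whose remnant CLIP is exchanged for a peptide in the endosome with the help of DM. CIITA does not bind DNA itself but is recruited to class II promoters by the proteins on the X and Y boxes (the RFX complex, CREB and NF-Y), and it is regarded as the limiting switch for class II expression in macrophages. In mice of the C57BL/6 background the alpha chain of the E molecule is not made, so the beta chain encoded by H2-Eb1 has no usual partner there.

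Promoter sequences of class II genes are shown because CIITA is recruited to class II promoters by the proteins on the X and Y boxes. RefSeq promoter windows (build GRCm38.p6, 250 bases before to 50 bases after the start) were examined for 5 of the 8 genes. Stretches of 3 genes are printed 5′ to 3′ on the strand of the gene, counted from base -150, with the letters GATTGG of the Y box and the letters CTNGNAAC of the X box in capitals, searched on both strands. The stretches match mm9 exactly at chr17:34424773-34424918 (minus strand, H2-Aa), chr17:34442662-34442811 (plus strand, H2-Eb1) and chr17:34282044-34282193 (plus strand, H2-DMb2).
H2-Aa: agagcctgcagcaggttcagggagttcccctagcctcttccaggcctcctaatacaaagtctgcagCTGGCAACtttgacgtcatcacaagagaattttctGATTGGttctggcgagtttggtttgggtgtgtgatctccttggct
H2-Eb1: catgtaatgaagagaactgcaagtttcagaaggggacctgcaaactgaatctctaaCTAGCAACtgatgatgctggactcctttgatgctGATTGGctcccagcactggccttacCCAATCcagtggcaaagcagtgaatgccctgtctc
H2-DMb2: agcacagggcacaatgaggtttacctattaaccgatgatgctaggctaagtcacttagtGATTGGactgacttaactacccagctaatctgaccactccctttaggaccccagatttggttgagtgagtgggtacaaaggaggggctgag
The X letters lay at -84 to -77 in H2-Aa, -94 to -87 in H2-Eb1 and -97 to -90 in H2-DMb1, and the Y letters followed them after 27, 26 and 27 bases. H2-DMb2 held the Y letters at -91 to -86 but not these X letters, and 1 of the 2 H2-DMa windows held the Y letters alone. These windows are not at the starts of the mm9 gene models given below. The H2-DMa windows (bases -150 to -1 at 34259627-34259776 and 34262313-34262462) lie upstream of its model, which starts at 34272127. The H2-DMb2 stretch lies inside its model (34280252-34288498). Whether promoters at the starts of the H2-DMa and H2-DMb2 models hold the X letters was not examined. In the H2-DMb1 window base -120 lies at 34290016, just before its model starts at 34290017. The X and Y letters of H2-DMb1 therefore lie inside its model. The X letters were chosen after these sequences were seen. They occurred in 13.2% of 32851 promoter windows, the Y letters in 16.1% and both in 2.17%. A match of letters is not evidence that a protein is bound there.

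In mm9 with the GENCODE vM1 models, H2-DMa (34272127-34276046), H2-DMb2 (34280252-34288498), H2-DMb1 (34290017-34297168), H2-Ab1 (34400154-34406363), H2-Aa (34406276-34424772) and H2-Eb1 (34442828-34453144) lie in this order on chromosome 17. H2-Ab1 and H2-Aa face each other on opposite strands, and their models overlap by 88 bases at their ends. Ciita lies on chromosome 16 (10480237-10527657). Reads were assigned without regard to strand, so strand does not separate reads within the H2-Ab1 and H2-Aa overlap. The expected counts of H2-Ab1 and H2-Aa were whole numbers in every library, so no division of reads between them was seen. The expected counts of H2-DMb1 and H2-DMb2 added up to a whole number in all 18 libraries, as when reads that match both are divided between them. Of the 50-base windows of the longest H2-DMb2 transcript, 25.2% also occur in H2-DMb1. The split between these genes is therefore uncertain.

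The totals of expected counts ran from 6781952 to 28289498 per library. Unstimulated replicate 1 stood apart from the other unstimulated libraries in genes of the interferon response, with 1402 normalised counts of Irf1 against 598.6 and 610.6, and it was also the highest of its group for H2-Aa, H2-Ab1, H2-Eb1, Cd74, Ciita and H2-DMa. Values without it are given where it matters. RNA of the Il10 locus was counted in all 18 libraries (27.06 to 176.7 normalised counts), which checks nothing about a deletion whose extent is not given in the sources used here. Replicate numbers were read as the mouse, which the labels do not state. The p-values rest on the spread between libraries within groups, in an estimate per gene that all 6 groups share, not on the 3 libraries of a group alone. In bulk RNA, fewer cells of a type and less RNA per cell cannot be told apart.

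Per length and per library, Cd74 was the most abundant member in every group. Its abundance in TPM, the share of transcripts corrected for gene length, averaged 335 ± 77.4 (SD, n = 3) in unstimulated cells. H2-Ab1 (65.4 ± 21.1) and H2-Aa (65.2 ± 17.7) followed and did not differ beyond their spread. H2-DMb1 (34.0 ± 0.84) and H2-Eb1 (32.6 ± 8.0) did not differ beyond their spread either, and H2-DMa averaged 14.8 ± 3.2. Ciita, at 2.01 ± 0.37, and H2-DMb2, at 1.59 ± 0.94, were the lowest. With JQ1 the order opened up, with Cd74 still at 157 ± 21.1 TPM and every other member at 12.1 or below.

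**Figure D1:**
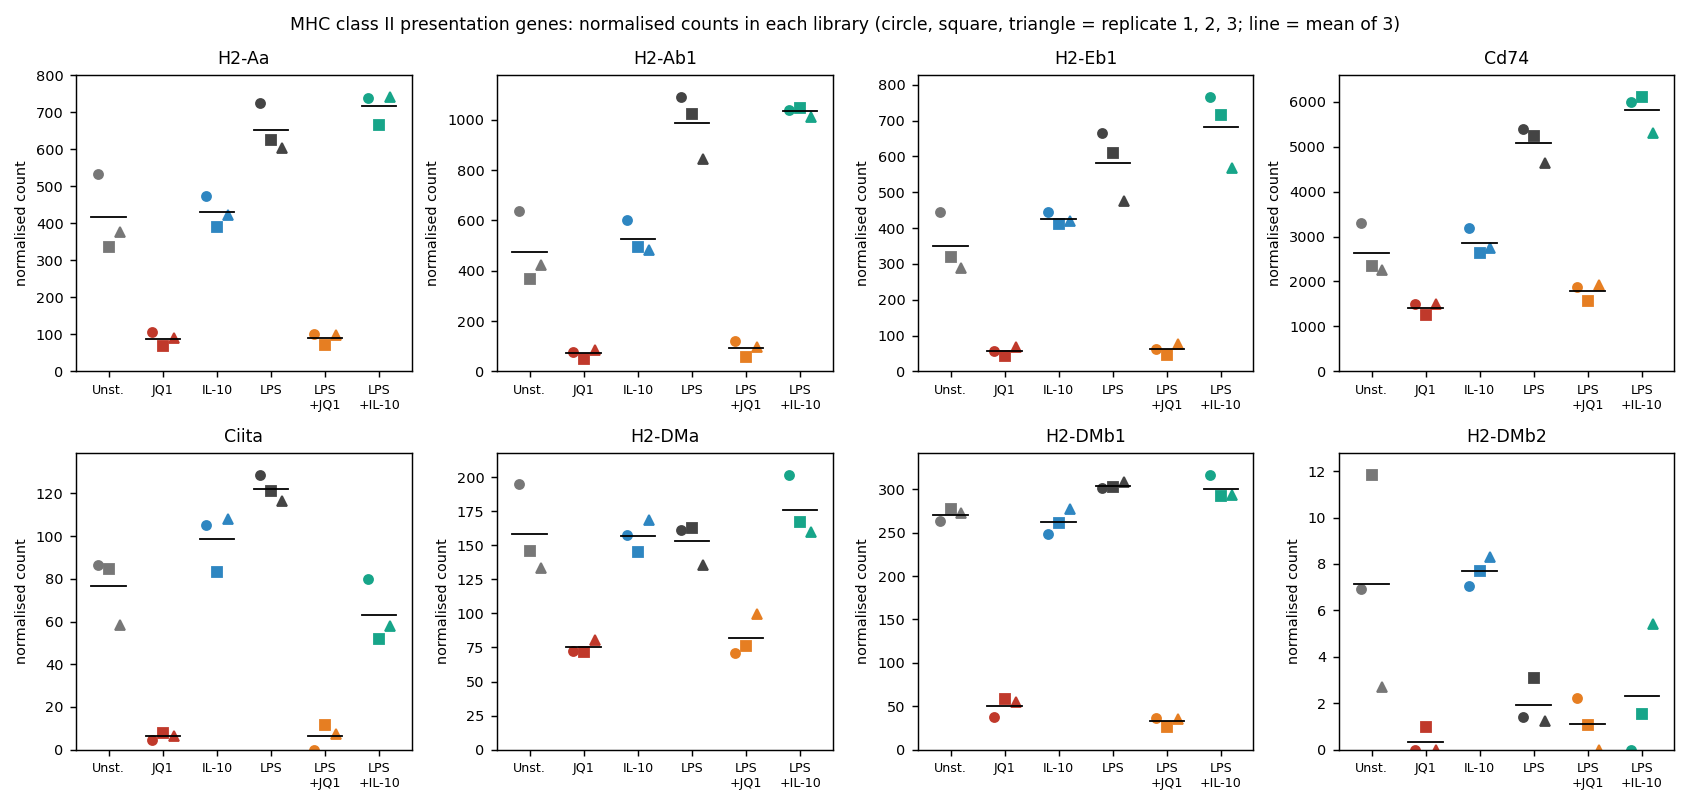
Normalised counts (linear axes from 0) of the 8 genes in each of the 18 libraries, by treatment group, with 1 symbol shape per replicate number and a line at the mean of 3. The JQ1 and LPS + JQ1 libraries lie below all other libraries for each gene but H2-DMb2, and Ciita is the only gene whose LPS + IL-10 libraries (51.7 to 79.8) all lie below its LPS libraries (116.6 to 128.7).

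JQ1 lowered the RNA of the class II chains, the transactivator, the invariant chain and DM in resting macrophages. Of the 8 genes, 8 were lower than in unstimulated cells in the DESeq2 Wald test with Benjamini-Hochberg adjusted p-values, where 23.7% of all 13686 genes tested were lower and 45.7% changed in either direction. The median log2 fold change of the 7 genes averaging 10 or more normalised counts over all libraries was -2.44, against -0.0006 over all genes tested. All comparisons with unstimulated cells share the same 3 control libraries, and all comparisons with LPS share the same 3 LPS libraries.

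The chains of the A molecule fell several-fold. H2-Ab1, the A beta chain, stood at 638, 367 and 421.6 normalised counts in unstimulated replicates 1, 2 and 3 and at 77, 50.3 and 87 with JQ1. The groups did not overlap, and the log2 fold change was -2.74 (SE 0.23, adjusted p = 6.98e-30 by DESeq2), a 6.67-fold lower level. H2-Aa, the A alpha chain, went from 533.1, 336.6 and 377.4 to 105.5, 69 and 90.7, again without overlap (log2 fold change -2.24, SE 0.18, adjusted p = 1.05e-33 by DESeq2). H2-Eb1, the E beta chain, went from 444.3, 318 and 289.6 to 57.1, 43.4 and 67.8, a 6.25-fold lower level (log2 fold change -2.64, SE 0.21). Without unstimulated replicate 1 the log2 fold changes of these 3 genes were -2.47, -2.02 and -2.43 in the same order, and each still passed.

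Ciita fell most of the 7 genes averaging 10 or more normalised counts over all libraries. Its unstimulated libraries held 86.4, 84.6 and 58.3 normalised counts and its JQ1 libraries 4.3, 7.9 and 6.4, which is a 12.3-fold lower level (log2 fold change -3.62, SE 0.39, adjusted p = 1.87e-19 by DESeq2). Every JQ1 library lay below every unstimulated library. At this depth the JQ1 level of Ciita rests on few reads, so its fold change is less certain than those of the abundant members, with a 95% interval from -4.38 to -2.86.

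Cd74 fell least. It stood at 3292, 2344 and 2264 normalised counts in unstimulated cells and at 1509, 1245 and 1506 with JQ1, a 1.86-fold lower level without overlap of the groups (log2 fold change -0.89, SE 0.14, adjusted p = 5.84e-10 by DESeq2). The 95% intervals of Cd74 (-1.16 to -0.62) and H2-Ab1 (-3.20 to -2.28) did not overlap. The invariant chain thus kept more of its RNA than the chains it escorts, which was described by these intervals and not by a test of the difference between genes.

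The DM chains were unequal. H2-DMb1 fell from 263.1, 277.4 and 272.2 normalised counts to 37.2, 58.2 and 54.9 (log2 fold change -2.44, SE 0.15, adjusted p = 1.97e-59 by DESeq2), and the unstimulated libraries were close together. H2-DMa fell from 195.2, 145.4 and 133.4 to 72.6, 72 and 80.6 (log2 fold change -1.08, SE 0.18, adjusted p = 1.18e-08 by DESeq2). H2-DMb2 held at most 11.8 normalised counts in any library. Its expected counts were 9.08, 6.68 and 3.92 in unstimulated cells and 0, 1.27 and 0 with JQ1. It passed the test (adjusted p = 0.00509 by DESeq2), but no fold is given at these counts. Without replicate 1 of every group it no longer passed (adjusted p = 0.105).

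JQ1 also kept the class II genes low when LPS followed. In LPS + JQ1 against LPS, 7 of the 8 genes were lower, where 32.9% of all genes tested were lower and 57.3% changed, with a median of -3.22 over the 7 genes against -0.11 over all genes. H2-Ab1 stood at 1093, 1023 and 843.5 normalised counts with LPS and at 122.6, 55.8 and 98.5 with LPS + JQ1, a 10.7-fold lower level (log2 fold change -3.42, SE 0.23, adjusted p = 7.70e-48 by DESeq2). H2-Aa went from 723.9, 624.5 and 602.8 to 101.6, 71.6 and 97.2 (log2 fold change -2.85, SE 0.18), and H2-Eb1 from 664.5, 609 and 475.1 to 61.8, 45.3 and 77.6 (log2 fold change -3.25, SE 0.21). None of these groups overlapped.

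Ciita stood at 128.7, 121 and 116.6 normalised counts with LPS and at 0, 11.6 and 7.4 with LPS + JQ1, a 19.2-fold lower level (log2 fold change -4.26, SE 0.41, 95% interval -5.06 to -3.46, adjusted p = 1.45e-24 by DESeq2). The size of this fall depended on single libraries, at -3.67 without LPS + JQ1 replicate 1 and -5.12 without LPS + JQ1 replicate 2, and it passed in all 19 alternatives. The library with a count of 0 held 14894988 counts in all, which allows a level of up to 0.201 CPM (counts scaled to the library total). Cd74 went from 5400, 5237 and 4631 to 1884, 1556 and 1926 (log2 fold change -1.51, SE 0.14), a 2.85-fold lower level. H2-DMb1 fell 9.32-fold, from 301.2, 303 and 308.2 to 36.4, 26.3 and 35.7, and H2-DMa 1.87-fold, from 161.2, 162.3 and 135.1 to 70.7, 75.8 and 99.7. H2-DMb2 had expected counts of 1.3, 2.54 and 1.24 with LPS and of 1.56, 1.16 and 0 with LPS + JQ1, and did not pass (adjusted p = 0.605 by DESeq2).

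**Figure D2:**
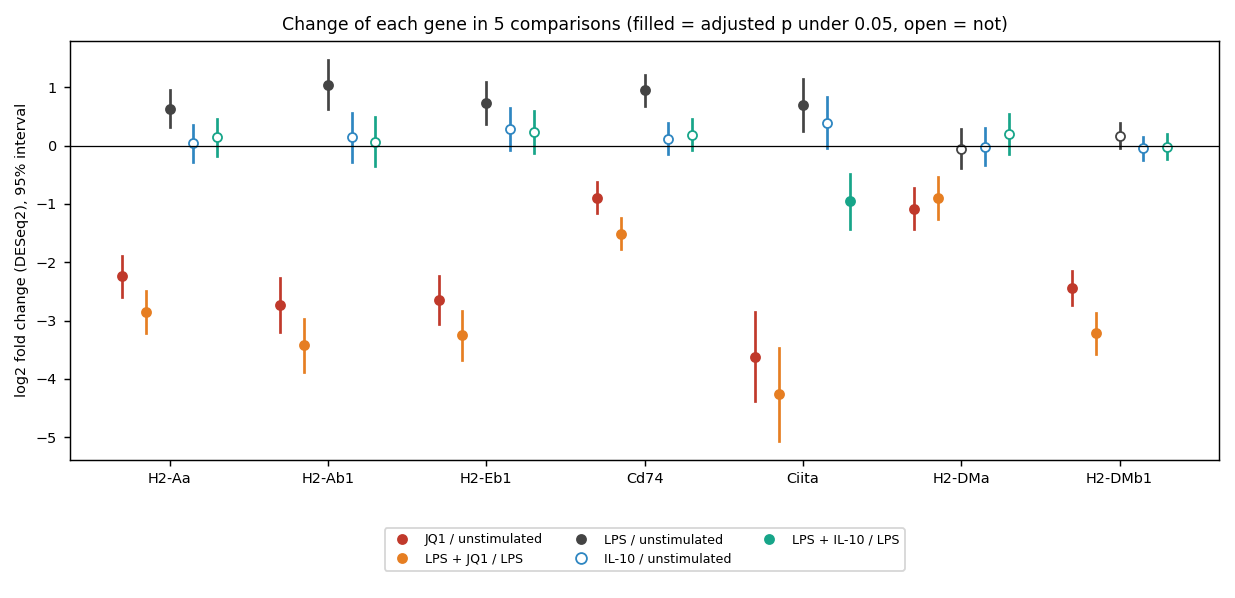
Log2 fold changes (DESeq2) with 95% intervals of the 7 genes averaging 10 or more normalised counts over all libraries in 5 comparisons, with 3 libraries per group, filled where the adjusted p was under 0.05. Both JQ1 comparisons lie below 0 for every gene, from -0.89 for Cd74 to -4.26 for Ciita, whereas the IL-10 comparisons include 0 for all genes except Ciita with LPS (-0.95).

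With LPS alone the class II genes moved by at most 1.05 on the log2 scale among the 7 averaging 10 or more normalised counts over all libraries, and the direction depended on how the libraries were scaled. With median-of-ratios scaling, 5 of the 8 genes (H2-Aa, H2-Ab1, H2-Eb1, Cd74 and Ciita) were higher with LPS, where 31.6% of all genes tested were higher and 64.5% changed, but when each library was scaled to its total count or read as TPM, H2-Aa, H2-Eb1 and Ciita lay slightly below unstimulated cells, and H2-Ab1 and Cd74 no longer passed. The median expressed gene moved by -0.07 on the log2 scale with LPS under median-of-ratios scaling and by -0.99 under total-count scaling. Relative to that median gene the log2 ratio hardly changed, at 1.12 and 1.12 for H2-Ab1 and at 1.02 and 1.02 for Cd74. This agreement is no added support, since a scaling shifts all genes of a library nearly alike and so leaves their distances as they were. What the values show is that these genes rose relative to the median gene. Whether their absolute level rose cannot be told from these data.

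With median-of-ratios scaling H2-Ab1 rose 2.07-fold, and its LPS libraries (843.5 to 1093 normalised counts) all lay above its unstimulated libraries (367 to 638), while under total-count scaling its log2 fold change was 0.12 (adjusted p = 0.639 by DESeq2). Cd74 rose 1.93-fold, H2-Eb1 1.66-fold and H2-Aa 1.55-fold with the first scaling, and all LPS libraries of these genes lay above all unstimulated ones. Unstimulated replicate 1 was the closest to LPS, and without it the log2 fold changes were 1.32 for H2-Ab1, 1.14 for Cd74, 0.94 for H2-Eb1 and 0.85 for H2-Aa, from 1.05, 0.95, 0.73 and 0.64 with it. In TPM, Cd74 averaged 335 ± 77.4 without and 377 ± 5.7 with LPS, and H2-Aa 65.2 ± 17.7 and 59.1 ± 3.2.

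Ciita rose 1.62-fold with LPS with the first scaling (log2 fold change 0.69, SE 0.23, adjusted p = 0.00448 by DESeq2). This call rested on single libraries. The adjusted p was 0.0577 without unstimulated replicate 3, and 0.0876 when the sequencing lane was added to the replicate block, a fit added after the data were seen. Lane cannot be fully told apart from LPS, since replicate 1 was sequenced on lane 7 throughout and replicate 3 on lane 8, while the LPS libraries of replicate 2 were on lane 8 and its others on lane 7. The DM genes did not follow the chains. H2-DMa (log2 fold change -0.05, 95% interval -0.39 to 0.28) and H2-DMb1 (0.17, interval -0.04 to 0.38) did not pass with median-of-ratios scaling, and both were lower under total-count scaling (-0.98 and -0.76, adjusted p = 1.02e-08 and 5.10e-12 by DESeq2). Relative to the median gene their log2 ratios were 0.02 and 0.23.

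**Figure D3:**
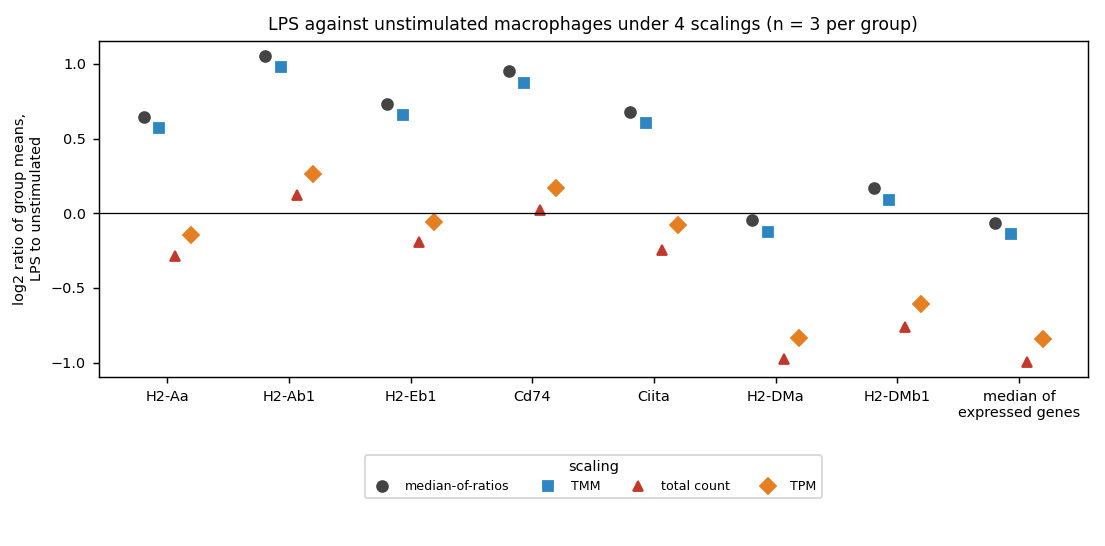
Log2 ratio of group means, LPS to unstimulated (n = 3 each), of 7 genes and of the median expressed gene under 4 scalings of the same libraries. All points of a gene shift together with the median gene, which lies at -0.07 under median-of-ratios and at -0.99 under total-count scaling. The distance from the median gene stays near 1.12 for H2-Ab1 and 0.02 for H2-DMa, because a scaling shifts all genes of a library nearly alike.

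After JQ1, few of the class II genes were called changed with LPS. In LPS + JQ1 against JQ1, where 58.6% of all genes tested changed, 2 of the 8 genes passed. Cd74 was higher (1420 ± 152 normalised counts, SD, n = 3, against 1789 ± 202; log2 fold change 0.33, adjusted p = 0.0276 by DESeq2), but it was at -0.04 under total-count scaling. Its call was lost without JQ1 replicate 2, LPS + JQ1 replicate 1 or LPS + JQ1 replicate 3 (adjusted p = 0.159, 0.109 and 0.131). H2-DMb1 was lower (50.1 ± 11.3 against 32.8 ± 5.6; log2 fold change -0.61, adjusted p = 0.00699 by DESeq2), and this call was lost without JQ1 replicate 2 or LPS + JQ1 replicate 2 (adjusted p = 0.0573 and 0.0801). For H2-Aa the log2 difference was 0.02, with an interval from -0.37 to 0.41. H2-Eb1 (0.12, interval -0.34 to 0.58), H2-DMa (0.12, interval -0.26 to 0.50) and H2-Ab1 (0.36, interval -0.12 to 0.85) did not pass either. The interval of Ciita (0.05, from -0.95 to 1.06) was wide and includes its change with LPS alone (0.69).

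IL-10 alone left the class II genes without a called change. Of the 8 genes 0 passed, the lowest adjusted p was 0.661, and 0 had an unadjusted p under 0.05 (DESeq2), where 2.81% of all genes tested changed, and edgeR and limma also called 0. Ciita stood at 105.2, 83 and 108 normalised counts with IL-10 and at 86.4, 84.6 and 58.3 without, so the groups overlapped (log2 fold change 0.39, 95% interval -0.05 to 0.83). The intervals bound the change of H2-Aa to between -0.28 and 0.36, and that of H2-DMb1 to between -0.25 and 0.15.

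With LPS, IL-10 lowered the transactivator while the genes of the class II chains did not pass the test. In LPS + IL-10 against LPS, 7 of the 8 genes had an adjusted p and 1 passed, where 17.2% of all genes tested changed. Ciita stood at 79.8, 51.7 and 57.7 normalised counts with LPS + IL-10, below all 3 LPS libraries, a 1.94-fold lower level (log2 fold change -0.95, SE 0.24, adjusted p = 0.000814 by DESeq2, or 0.0138 with the replicate block). H2-Ab1 stood at 1039, 1049 and 1013, inside the range of its LPS libraries (log2 fold change 0.07, interval -0.35 to 0.49). H2-Aa (0.14), H2-Eb1 (0.23) and Cd74 (0.19) also did not pass, and their upper bounds were 0.46, 0.58 and 0.45. Without replicate 2 or replicate 3 of every group the adjusted p of Ciita was 0.0998 and 0.0705.

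In LPS + IL-10 against IL-10, where 67.0% of all genes tested changed, H2-Aa (log2 fold change 0.74), H2-Ab1 (0.97), H2-Eb1 (0.68) and Cd74 (1.02) were higher and Ciita lower (-0.65, adjusted p = 0.00889 by DESeq2) with median-of-ratios scaling, while under total-count scaling H2-Aa (-0.10) and H2-Eb1 (-0.15) turned and H2-Ab1 and Cd74 no longer passed. Ciita stayed lower under each scaling tried. The fall of Ciita in this comparison was lost without IL-10 replicate 1, LPS + IL-10 replicate 2 or LPS + IL-10 replicate 3 (adjusted p = 0.0514, 0.0585 and 0.0593), and with lane beside the replicate block (0.0846).

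The effect of IL-10 on Ciita differed with and without LPS. The interaction term, which is the effect of IL-10 with LPS minus its effect without, was -1.35 on the log2 scale for Ciita (SE 0.33, adjusted p = 0.00121 by DESeq2, 0.024 with the replicate block), and all 3 replicate numbers gave the same sign. Without replicate 2 of every group it no longer passed (-1.41, adjusted p = 0.0587 by DESeq2), nor did it by limma on log2(TPM + 0.1) (-1.18, adjusted p = 0.211). It was the 1 gene to pass of the 7 with an adjusted p, where 7.44% of all genes tested passed. For H2-Ab1 the interaction was -0.07, with an interval from -0.67 to 0.52.

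The interaction of JQ1 with LPS passed for 3 of the 8 genes, H2-Aa (-0.62, adjusted p = 0.0413), Cd74 (-0.62, adjusted p = 0.00463) and H2-DMb1 (-0.78, adjusted p = 0.00312 by DESeq2), where 41.5% of all genes tested passed, a share near that of the 8. H2-Ab1 did not pass (-0.68, adjusted p = 0.0835 by DESeq2) but passed with the replicate block (-0.74, adjusted p = 0.0256), and this was the only call on the 8 genes that the block changed. Under total-count scaling the interactions of H2-Aa, Cd74 and H2-DMb1 shrank to -0.06, -0.07 and -0.22, and none of these passed, while H2-DMa passed in the other direction (0.73, adjusted p = 0.00986 by DESeq2). Without replicate 2 of every group the values of H2-Aa, Cd74 and H2-DMb1 were -0.52, -0.51 and -0.53, and none passed. For H2-Aa the call was also lost when any 1 of 7 libraries was left out (JQ1 replicates 1 and 3, LPS replicates 1 and 2, LPS + JQ1 replicate 2 and unstimulated replicates 2 and 3).

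LPS + JQ1 and LPS + IL-10 lay far apart. The test between them called 7 of the 8 genes lower with JQ1, where 31.6% of all genes tested were lower and 55.3% changed. The log2 fold changes were -3.49 for H2-Ab1, -3.48 for H2-Eb1, -3.31 for Ciita, -3.20 for H2-DMb1, -2.99 for H2-Aa, -1.70 for Cd74 and -1.10 for H2-DMa, each past the test under every alternative tried. For Ciita both groups were below LPS, with 6.32 ± 5.9 normalised counts (SD, n = 3) in LPS + JQ1 and 63.1 ± 14.8 in LPS + IL-10.

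Across the 6 groups H2-Aa, H2-Ab1, H2-Eb1 and Cd74 had the same order by mean normalised count: LPS + IL-10, LPS, IL-10, unstimulated, LPS + JQ1, JQ1. In this order LPS + IL-10 and LPS overlapped for each of the 4, as did IL-10 and unstimulated cells. LPS + JQ1 and JQ1 overlapped for the chains but not for Cd74. Ciita had another order, with LPS first, followed by IL-10, unstimulated, LPS + IL-10, LPS + JQ1 and JQ1. By mean TPM H2-Ab1 kept its order, while the orders of H2-Aa, H2-Eb1, Cd74 and Ciita differed, with IL-10 above LPS. Both JQ1 groups stayed lowest for all of these genes.

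Other class II genes were barely expressed. H2-Oa and H2-Ob, which encode the DM inhibitor DO, reached at most 12.2 and 15.6 normalised counts, H2-Eb2 at most 2.07, and H2-Ea-ps, the annotated E alpha pseudogene, had a count of 0 in all libraries. Of these 4 genes H2-Oa was called higher with LPS (adjusted p = 0.0287 by DESeq2) and H2-Ob lower in LPS + JQ1 against LPS (adjusted p = 0.0052), on means over all libraries of 2.42 and 4.00 normalised counts. No fold is given for them.

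The enhanceosome genes moved in both directions with JQ1. With JQ1 alone, where 23.7% of all genes tested were lower and 45.7% changed, 2 of 7 were lower (Rfx5 -0.63 and Nfyc -0.43), 1 was higher (Nfya 0.36) and 4 did not pass (Rfxap 0.26, Rfxank -0.31, Nfyb 0.27 and Creb1 0.17 on the log2 scale). Their median log2 fold change was 0.17. Rfx5, the large RFX subunit, stood at 149.5 to 172.5 normalised counts in unstimulated cells and at 98.9 to 107.2 with JQ1 (adjusted p = 0.000369 by DESeq2), so the groups did not overlap. In LPS + JQ1 against LPS, Rfx5 (-0.92), Nfyb (-0.82), Creb1 (-1.04) and Nfyc (-0.28) were lower and Rfxap (1.29), Rfxank (1.01) and Nfya (0.22) higher, and the sign of Nfyc turned under total-count scaling. With LPS alone Rfx5 (1.05), Nfyb (1.38) and Creb1 (0.99) were higher and Rfxap (-1.32), Rfxank (-1.99) and Nfya (-0.17) lower, with the same signs under each scaling. IL-10 changed 0 of 7 with or without LPS by DESeq2, with 1 gene at an unadjusted p under 0.05 in each case. Of all genes tested, 2.81% changed with IL-10 alone and 17.2% in LPS + IL-10 against LPS.

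Of the interferon gamma route and the regulators of Ciita, 12 genes were examined. Ifng itself, which encodes the classical inducer of Ciita, was at or near 0 in every library (at most 1.35 normalised counts). Its receptor chains were expressed. With JQ1 alone 4 of the 11 genes with an adjusted p were lower and 2 higher, where 23.7% of all genes tested were lower and 45.7% changed. Spi1, which encodes the myeloid factor PU.1, was lower (-0.62, adjusted p = 2.47e-07 by DESeq2), as were Prdm1 (-0.87) and Ifngr2 (-0.56), while Irf8 (0.53) and Jak1 (0.30) were higher. In LPS + JQ1 against LPS 7 of the 11 were lower and 1 higher, where 32.9% of all genes tested were lower and 57.3% changed, with a median log2 fold change of -0.78 against -0.11 over all genes. Lower there were Spi1 (-1.55), Prdm1 (-1.43), Irf1 (-1.07) and Irf8 (-0.78), and Ifngr1 was higher (0.18). With LPS 10 of the 11 were higher, where 31.6% of all genes tested were higher and 64.5% changed. Among them were Irf1 (4.38), Irf8 (2.89) and Spi1 (2.02), and Ifngr1 was lower (-0.98). The signs of Ifngr2 and Usf1 turned under total-count scaling.

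IL-10 with LPS lowered 2 of these genes and raised 3, where 17.2% of all genes tested changed. Lower were Irf8 (-1.45, adjusted p = 9.00e-18 by DESeq2) and Irf1 (-0.90, adjusted p = 0.00637). Higher were Ifngr2 (0.61), Usf1 (0.57) and Jak1 (0.31). Irf8 stood at 5416 to 9619 normalised counts with LPS + IL-10 and at 18420 to 19340 with LPS, without overlap. Its interaction of IL-10 with LPS (-1.46) also passed, while that of Irf1 (-0.79) did not. Whether these genes bear on the lower Ciita was not tested.

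The endosomal processing genes moved in both directions with JQ1. Of 8 genes 3 were lower and 3 higher with JQ1 alone, where 23.7% of all genes tested were lower and 45.7% changed, with a median log2 fold change of -0.06. Lower were Ctss (-0.93), which encodes cathepsin S, Lgmn (-1.11), which encodes legumain, and Ctsh (-0.35). Higher were Ctsb (1.02), Ctsl (0.57) and Ctsd (0.34). Ctss stood at 28790, 28140 and 26520 normalised counts in unstimulated cells and at 14550, 14920 and 14220 with JQ1. It was also lower in LPS + JQ1 against LPS (-1.29), as was Lgmn (-1.56), whereas Ctsl was higher (1.58). With LPS alone 2 of 8 were higher (Ctss 0.29 and Ctsz 0.71, both below 0 under total-count scaling) and 3 lower (Ctsd -0.51, Ifi30 -0.50 and Lgmn -0.24). In that comparison 31.6% of all genes tested were higher and 64.5% changed.

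IL-10 raised 5 of the 8 processing genes in resting cells: Lgmn (0.41), Ctsl (0.35), Ctsh (0.31), Ctss (0.21) and Ctsb (0.20). In this comparison 0 of the class II genes passed and 2.81% of all genes tested changed. With LPS, IL-10 raised 4, Lgmn (0.34), Ctsh (0.21), Ctsb (0.17) and Ctss (0.14), where 17.2% of all genes tested changed. These are small changes, the largest adjusted p being 0.0371 without and 0.0394 with LPS (DESeq2).

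March1, which encodes the ubiquitin ligase that removes class II from the surface and that IL-10 is known to induce, varied most among the turnover genes. It stood at 662.7, 624.1 and 558.4 normalised counts in unstimulated cells, at 104.6, 89.7 and 98.9 with JQ1 and at 1010, 858.3 and 844.9 with IL-10. It stood at 318.1, 328.8 and 499.7 with LPS, at 8.84, 12.6 and 16.0 with LPS + JQ1 and at 2106, 2777 and 3279 with LPS + IL-10. No pair of these groups overlapped.

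The log2 fold change of March1 was -4.95 in LPS + JQ1 against LPS and 2.83 in LPS + IL-10 against LPS, with adjusted p-values of 1.86e-57 and 5.69e-56 by DESeq2. Under JQ1 the ligase thus fell together with its substrates, and under IL-10 with LPS it rose while the RNA of the chains did not change detectably. Both of its interactions passed (-2.30 for JQ1 and 2.27 for IL-10). March8, a related ligase, was higher with JQ1 (0.45) and lower with LPS (-0.59). Cd83, whose product opposes March1, rose with LPS (4.22). In LPS + JQ1 it remained at 10480 to 11530 normalised counts against 10340 to 11540 with LPS, and in LPS + IL-10 it fell to 2615 to 5065 (-1.52, adjusted p = 2.49e-15 by DESeq2).

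**Figure D4:**
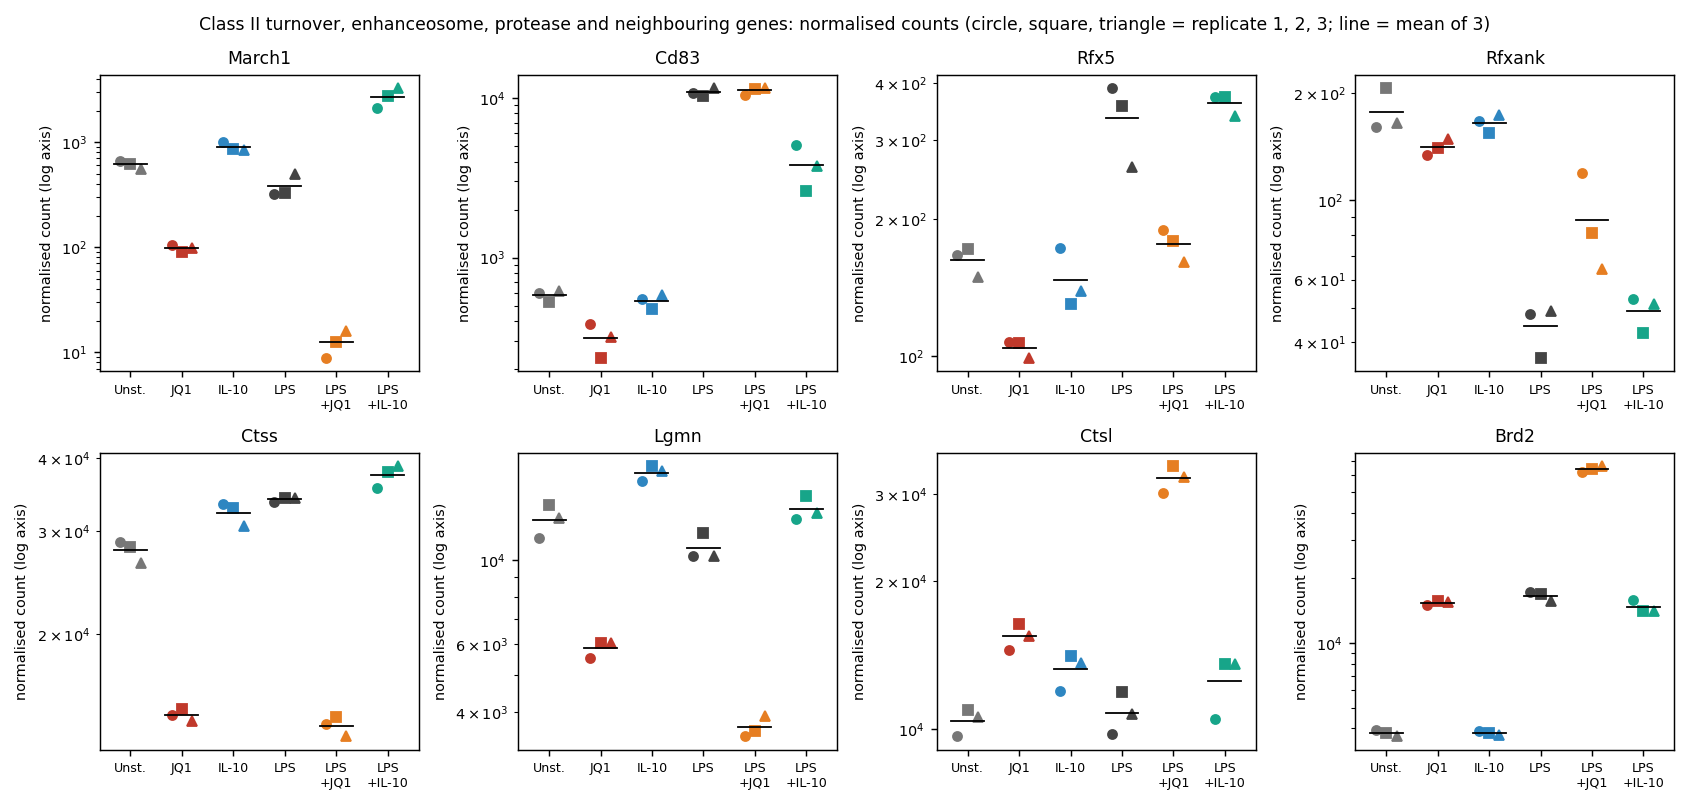
Normalised counts (log axes) of 8 genes of the class II pathway and region in each of the 18 libraries, with 1 symbol shape per replicate number and a line at the mean of 3. March1 spans 8.84 to 3279 normalised counts, Cd83 is high in LPS and LPS + JQ1 alike, Ctss and Lgmn lie lowest in both JQ1 groups, and Brd2 lies highest in LPS + JQ1.

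The class II region on chromosome 17 was not lowered as a whole. Of 12 neighbours listed, 11 had an adjusted p with JQ1 alone, 5 were lower and 2 higher. Of all genes tested, 23.7% were lower and 45.7% changed. Lower were the antigen processing genes Tap2 (-0.89), Psmb8 (-0.72), Tap1 (-0.64) and Psmb9 (-0.48) and also Notch4 (-0.64), with a median of -0.15 over the list against -2.44 over the class II genes. Brd2, which encodes a BET protein and lies between H2-Oa and H2-DMa at 34248965-34259262, was higher, at 14890, 15670 and 15390 normalised counts against 3927, 3822 and 3681 (log2 fold change 2.01), and Ring1 was higher too (0.52). With LPS, Tap1 (4.50), Tap2 (3.47) and Psmb9 (3.06) were higher.

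The cells carried the RNA of macrophages. The 7 macrophage markers were detected in all libraries, with a summed level of 14070 to 29060 TPM. Of 7 dendritic cell markers the summed level was 0.36 to 3.18 TPM, and it was 0.36 to 1.49 in the JQ1 and unstimulated libraries. Cd209a was at or near 0 throughout. Xcr1 reached 57.9 to 70.0 normalised counts with LPS and 2.21 to 7.37 with LPS + JQ1 (-3.97). Zbtb46 was not called lower with JQ1. It reached 16.5 to 27.0 with LPS and 15.8 to 27.6 with LPS + JQ1. Without LPS it averaged 3.85 in unstimulated cells and 12.3 with JQ1, also without a call. Of the 6 B cell markers, Pax5 and Ms4a1 reached at most 4.91 normalised counts, while Blnk, which macrophages also express, was at 634 to 5532 and lower with JQ1 (-1.40). Cd79b fell from 16.9 to 33.2 normalised counts in unstimulated cells to under 1 in each JQ1 library (-4.90), and with LPS it stood at 10.3 to 12.7. Of the 6 T cell markers, Cd3d, Cd3e, Cd3g and Cd8a were at or near 0 (at most 3.31), and Cd4 fell from 148.8 to 162.8 to 77.9 to 91.6 with JQ1 (-0.90). Lck rose from at most 2.01 to 95.1 to 97.6 normalised counts with LPS. The part of other cell types in the class II values was not tested.

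Macrophage markers themselves moved in both directions with JQ1. Itgam, which encodes the integrin CD11b, was lower (-1.64), as were Adgre1 (-0.27) and Csf1r (-0.24), and Mertk (0.96), Cd14 (0.65) and Lyz2 (0.62) were higher. Their median was -0.13. The class II genes fell by more than any of these markers except Itgam, which fell by more than Cd74 and H2-DMa.

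The genes outside the list whose profile over the 18 libraries was most like that of a class II gene were found by the root mean square difference of log2(normalised count + 1) after each gene's mean was subtracted, among 8372 genes with a mean of at least 100. Nearest to H2-Ab1 were Aif1 (0.286), Sema4d (0.325) and Pirb (0.392), while among the class II genes themselves H2-Eb1 (0.233) and H2-Aa (0.346) were at such distances and Cd74 was at 0.905. Nearest to Cd74 were Dpysl2 (0.178), Rcan1 (0.180) and Xylt2 (0.184), all nearer than any other class II gene, of which H2-DMa (0.422) was the closest. Nearest to Ciita were Clec4a2 (0.741), St18 (0.755) and Cd93 (0.774), which are distant by comparison. Ciita averaged only 62.1 normalised counts and had a count of 0 in LPS + JQ1 replicate 1, so its distances also hold counting error. Aif1, for example, averaged 530.5 ± 137.8 normalised counts (SD, n = 3) in unstimulated cells, 124.7 ± 28.5 with JQ1 and 1034 ± 118.5 with LPS. All genes share the same libraries and scaling, so these distances are a description.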

How the data were processed

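The 18 libraries were grouped by their titles, and the replicate number was read as the mouse (3 in all), since the series description calls the samples matched, although no label ties a number to a mouse. The authors prepared stranded, ribosomal RNA-depleted, paired-end libraries, extracted reads with TagDust and used STAR (genome mm9) and RSEM 1.2.31 with default settings, under which strand is ignored. Expected counts, as deposited, divide reads that match several genes among them. For the tests they were rounded to whole numbers. TPM values, also deposited, correct for gene length and library total, and the FPKM values the authors deposited were not used.

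DESeq2 1.42.0 (R 4.3.3) was fitted with its Wald test to all 18 libraries and all genes with group as the only term, after the study's methods, and a Benjamini-Hochberg adjusted p under 0.05 was called. This fit gave each adjusted p printed, unless another is named. Normalised counts are counts divided by median-of-ratios size factors. Folds and intervals (95%) come from the same fit. Alternatives were edgeR 4.0.16, limma 3.58.1 on log2(TPM + 1) and log2(TPM + 0.1), total-count scaling, an offset for the effective lengths, a filter on low counts, lane, only the groups compared, a replicate block and left-out libraries. Same-numbered libraries had a mean correlation of deviations of -0.045 to 0.319 over the comparisons. Chi-square statistics per degree of freedom of 4.14 or more between replicates showed no duplicate deposit. Floors of 3 counts cover counting error only. The script was tested on simulated data. The 8 genes and the gene lists were chosen with earlier results of these data known. The genes named are the 8 genes, all other class II and enhanceosome genes, and up to 3 genes per list and comparison with the largest change, with further ones where their role is described. Positions come from GENCODE vM1 on mm9, and promoters from RefSeq. Some members of the gene lists are not reported here.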

Additional observations from a re-analysis of the deposited data

Results flagged for a closer look

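The interaction of JQ1 with LPS passed for 3 of the 8 genes and for March1, by a test of the interaction term (DESeq2, adjusted over all genes). Of all genes tested 41.5% passed, a share near that of the 8. The interaction was -0.62 on the log2 scale for H2-Aa, -0.62 for Cd74, -0.78 for H2-DMb1 and -2.30 for March1, meaning a deeper fall with JQ1 when LPS followed. Genes of the other lists also passed. For H2-Aa, Cd74 and H2-DMb1 it was small and no longer passed under total-count scaling, and none of these genes passed without replicate 2 of every group. For March1 the libraries of JQ1 (89.7 to 104.6 normalised counts) and LPS + JQ1 (8.84 to 16.0) did not overlap.

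The effect of IL-10 differed with and without LPS for Ciita of the 8 genes (-1.35) and for March1 (2.27), by the same test, which 7.44% of all genes tested passed. Ciita stood higher on average with IL-10 than without in resting cells, without passing the test, and lower than with LPS alone once LPS was added. March1 rose in both settings, and more with LPS.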

How the results depend on the processing

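With JQ1 alone and in LPS + JQ1 against LPS or LPS + IL-10, the 7 genes averaging 10 or more normalised counts kept their direction and call under every alternative tried. Of 1544 values of single genes under alternatives, 1434 kept direction and call, 62 lost the call, 25 gained it and 23 changed sign. Those that changed sign, under limma on log2(TPM + 0.1), limma on log2(TPM + 1) and total-count scaling in this order, were in LPS against unstimulated cells H2-Aa (-0.11, -0.11, -0.29), H2-Eb1 (-0.035, -0.034, -0.20), Ciita (-0.062, -0.046, -0.23) and H2-DMb1 (-0.61, -0.59, -0.76), and in LPS + IL-10 against IL-10 H2-Eb1 (-0.054, -0.053, -0.15), H2-DMa (-0.56, -0.52, -0.67) and H2-DMb1 (-0.53, -0.51, -0.63). Under total-count scaling alone, H2-Aa in LPS + IL-10 against IL-10 (-0.10) and Cd74 in LPS + JQ1 against JQ1 (-0.044) changed sign too.

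The number of genes called with LPS went from 5 to 3 under both limma fits and total-count scaling, where none of the 5 passed and the 3 were H2-DMa, H2-DMb1 and H2-DMb2, all lower. In LPS + JQ1 against JQ1 it went from 2 to 1 under both limma fits, total-count scaling and a fit of only the groups compared. It went from 1 to 0 under limma on log2(TPM + 0.1) in LPS + IL-10 against LPS and in the interaction of IL-10, and from 3 to 1 under total-count scaling in the interaction of JQ1, where the 1 was H2-DMa (0.73), not among the 3. The cause was not tested. Leaving out 1 library or replicate number gave 4 to 5 genes with LPS, 7 to 8 with JQ1, 0 to 0 with IL-10, 7 to 7 in LPS + JQ1 against LPS and against LPS + IL-10, 0 to 1 in LPS + IL-10 against LPS, 0 to 2 in LPS + JQ1 against JQ1, 4 to 5 in LPS + IL-10 against IL-10, 0 to 5 in the interaction of JQ1 and 0 to 1 in that of IL-10. Both interactions had 0 calls without replicate 2. No count is given for edgeR with JQ1, where H2-DMb2 was filtered out, or for the interaction of IL-10 without replicate 3, where Ciita had no adjusted p. The replicate block changed 1 call on the 8 genes, H2-Ab1 in the interaction of JQ1 (-0.74, adjusted p = 0.0256). The block with lane was chosen after seeing the data. H2-DMb2, and Ciita with JQ1, are limited by few counts.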
